A study of Mus musculus with 36 samples.

Results

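The genes described here are 9 transcription factors and co-factors that give neurons of the hippocampus and the cerebral cortex their identity: Zbtb20, Fezf2, Bcl11b, Cux2, Etv1, Nr2f1, Nr2f2, Mef2c and Tle4. They were chosen by name, as known factors of hippocampal field and cortical layer, and make up 9 of the 21938 protein-coding genes of the annotation (GENCODE vM21, genome build mm10). For each, the share of the promoter and of the gene body covered by islands of 3 histone marks was measured in every library, with the width of the overlapping island and its counts per kb. The promoter ran from 2 kb before to 2 kb after the annotated gene start.

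Zbtb20 is a BTB zinc finger protein of developing hippocampal neurons. Fezf2 and Bcl11b (CTIP2) are zinc finger factors of the deep-layer neurons that project out of the cortex, and Bcl11b is also made in CA1 and dentate granule neurons. Cux2 is a homeodomain protein of upper-layer neurons, Etv1 an ETS factor of layer V, and Tle4 a Groucho co-repressor of layer VI. Nr2f1 and Nr2f2 (COUP-TFI and COUP-TFII) are orphan nuclear receptors that pattern cortical and hippocampal territories, and Mef2c is a MADS-box factor of maturing neurons. Genes of this kind are textbook targets of Polycomb repression in cells that do not use them. PRC1 places ubiquitin on histone H2A (H2AK119ub1) and PRC2 trimethylates histone H3 (H3K27me3), while H3K36me2 is a mark of other, mostly broad regions and a substrate of KDM2B. KDM2B brings a variant PRC1 to unmethylated CpG-rich DNA through its CxxC zinc finger.

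ChIP-seq libraries came from the hippocampus at postnatal day 0 and from neurospheres, which are progenitors from such hippocampi kept as floating cultures with FGF2 and EGF over several generations. Control mice (Ctrl) were Kdm2bfl/+ or Kdm2bfl/fl, and conditional knockout mice (cKO) were Kdm2bEmx1-delta-CxxC, in which Emx1-Cre removes the CxxC domain and leaves a shortened protein. Emx1-Cre acts in progenitors of the dorsal telencephalon and their progeny, so other cells of the hippocampus keep the domain. There were 2 libraries for every combination of mark, source and genotype, or 24 with islands, and 12 of the 36 samples were inputs that were not analysed here.

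Called counts per library ran from 987329 to 22021439 and the covered length from 37.3 to 497 Mb, and neither is the sequencing depth, which is not known here. Of the hippocampal H2AK119ub1 libraries, replicate 2 of each genotype covered more than replicate 1 (157 and 247 Mb against 45.7 and 37.3 Mb), and neurosphere H3K36me2 cKO replicate 1 had the longest cover of all (497 Mb). All 7 promoters of other lineages checked, which are silent in brain, had an H3K27me3 island in every library. None of 5 neuronal promoters had an H2AK119ub1 or H3K27me3 island in all hippocampal libraries, and for each mark 3 had none in any. Of 7 forebrain progenitor promoters, Pax6 had both Polycomb marks in all hippocampal libraries, and Emx1 had H3K27me3 in all neurosphere libraries. Whether a mark sat in fewer cells or was weaker in each cell cannot be told apart in such bulk libraries. Islands do not show the deleted exon, and Kdm2b itself gave no check of the genotype labels.

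The starts of the 9 genes differ in CpG content, which is shown first because the deleted domain binds CpG-rich DNA. The 200 bases before the start are given 5' to 3' on the strand of the gene in mm10, with each CG in capitals, for the gene with the most CG pairs (Cux2, 33, chr5:122050103-122050302, minus strand), a gene with H2AK119ub1 as the only Polycomb mark in its promoter window (Tle4, 14, chr19:14598052-14598251, minus strand), a gene covered by both Polycomb marks with few CG pairs here (Bcl11b, 5, chr12:108003603-108003802, minus strand), one covered with none (Fezf2, 0, chr14:12348190-12348389, minus strand) and one with neither Polycomb mark in its promoter window (Mef2c, 1, chr13:83503834-83504033, plus strand):
Cux2: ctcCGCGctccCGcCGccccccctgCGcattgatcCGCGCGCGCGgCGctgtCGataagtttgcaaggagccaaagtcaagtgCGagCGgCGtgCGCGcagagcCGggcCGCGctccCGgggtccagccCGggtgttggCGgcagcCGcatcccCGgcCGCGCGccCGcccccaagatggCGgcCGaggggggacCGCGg
Tle4: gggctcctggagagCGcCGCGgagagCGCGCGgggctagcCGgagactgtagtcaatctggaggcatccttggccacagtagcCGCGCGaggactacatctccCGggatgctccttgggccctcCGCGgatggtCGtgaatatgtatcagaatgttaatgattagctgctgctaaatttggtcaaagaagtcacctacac
Bcl11b: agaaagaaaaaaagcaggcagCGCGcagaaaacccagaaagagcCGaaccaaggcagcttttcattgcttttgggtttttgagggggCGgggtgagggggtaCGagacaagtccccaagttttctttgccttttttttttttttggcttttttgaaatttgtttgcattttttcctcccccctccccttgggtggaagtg
Fezf2: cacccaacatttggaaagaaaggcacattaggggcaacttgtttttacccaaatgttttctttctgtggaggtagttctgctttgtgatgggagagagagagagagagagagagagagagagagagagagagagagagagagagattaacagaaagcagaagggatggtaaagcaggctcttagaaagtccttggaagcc
Mef2c: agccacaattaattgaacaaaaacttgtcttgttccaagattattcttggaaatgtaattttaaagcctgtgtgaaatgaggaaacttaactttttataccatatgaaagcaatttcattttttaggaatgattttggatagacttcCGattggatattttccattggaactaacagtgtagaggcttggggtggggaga
The letters CG occurred in this window in 8 of the 9 genes and in 90.4% of all protein-coding genes, with a median of 7 pairs. In the 1 kb around the start, 5 of the 9 were CpG-rich (more than 50% GC, and CpG pairs over 0.6 of the number that base composition predicts), namely Zbtb20, Bcl11b, Cux2, Nr2f1 and Tle4, or 55.6%, against 44.4% of all genes. CpG pairs in that 1 kb numbered 129 at Cux2, 87 at Zbtb20, 85 at Tle4, 63 at both Bcl11b and Nr2f1, 40 at Etv1, 13 at both Nr2f2 and Mef2c, and 9 at Fezf2. In neurospheres the promoters most fully covered by both Polycomb marks were those of Fezf2 and Nr2f2, which had few CpG pairs around the annotated start. None of the 11 distinct coding transcript starts of Zbtb20 lies at its annotated gene start: the nearest is 31.8 kb inside, and the densest 1 kb around these internal starts holds 9 to 20 CG. Further CG-dense stretches lie inside the covered genes, with up to 72 CG in 1 kb near a start 2.23 kb into Fezf2 and up to 138 near one 6.14 kb into Nr2f2.

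At promoters the genes fell into 4 patterns. Fezf2 and Nr2f2 carried both Polycomb marks over most or all of the window in neurospheres. Bcl11b and Cux2 carried both marks with wide spread between libraries. Tle4 had H2AK119ub1 and no H3K27me3. Zbtb20, Etv1, Nr2f1 and Mef2c had islands in at most 2 libraries of any mark and source, or none.

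**Figure D1:**
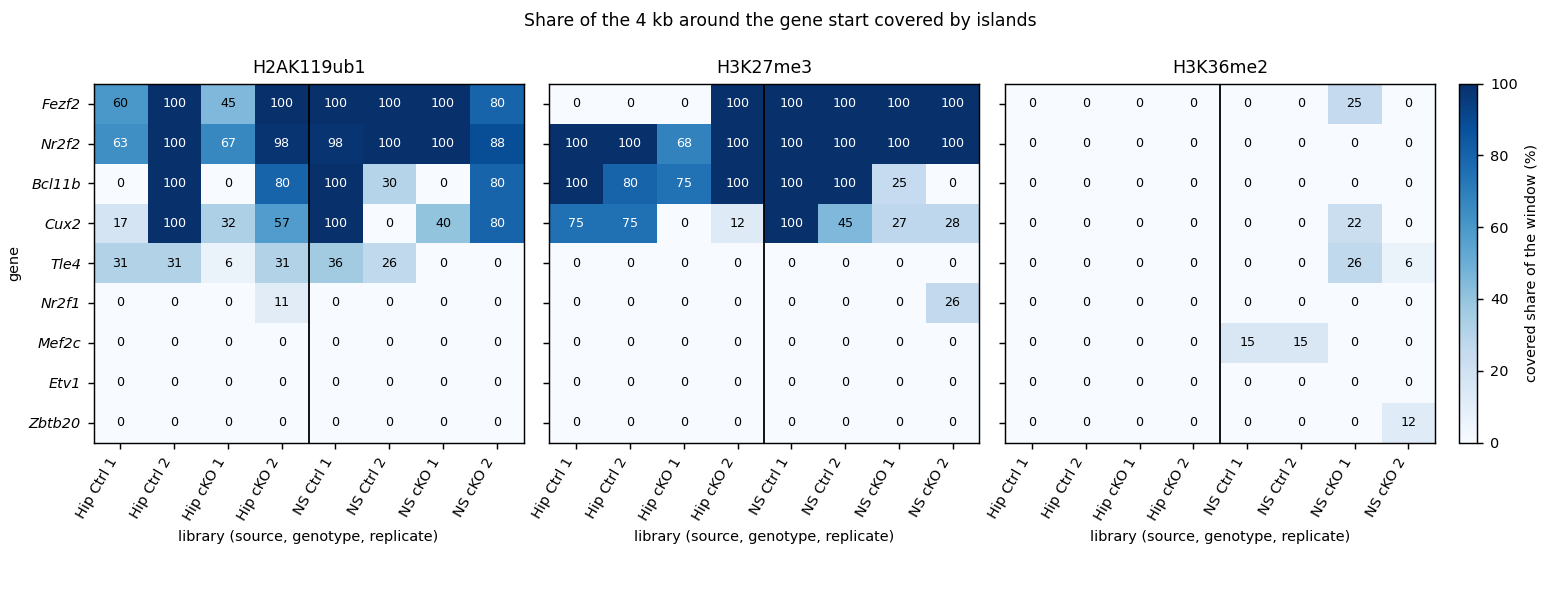
Share of the 4 kb promoter window covered by islands (percent, colour and printed number), with a row for each of the 9 genes, a column for each library (Hip, hippocampus; NS, neurosphere; genotype and replicate) and a panel for each mark. Fezf2 and Nr2f2 stand at 80% to 100% for both Polycomb marks in all neurosphere libraries, and Etv1 is at 0 throughout.

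Fezf2 (chromosome 14, 12342094 to 12348189, minus strand) was, of the 9, the gene whose H3K27me3 differed most by source. In hippocampus its promoter was without H3K27me3 in both Ctrl libraries (0% and 0%) and in cKO replicate 1 (0%), and fully covered in cKO replicate 2 (100%). In neurospheres the cover was 100% in all 4 libraries. The single hippocampal island over the promoter was 9.4 kb wide. In neurospheres the islands were 25.0 and 20.8 kb wide (Ctrl) against 37.0 and 64.8 kb (cKO), with 138 and 124 counts per kb against 79.2 and 74.4. The cKO islands were thus wider and less dense than both Ctrl islands. Relative to the mean counts per kb of all islands in the same library, they stood at 2.29 and 2.37 in Ctrl and 1.83 and 1.77 in cKO. H2AK119ub1 covered the Fezf2 promoter over 60% and 100% in hippocampal Ctrl and 45% and 100% in cKO, in both genotypes more in replicate 2, as the covered length of these libraries was. In neurospheres it covered 100% in 3 libraries and 80% in cKO replicate 2. H3K36me2 reached the promoter only in neurosphere cKO replicate 1 (25.3%), the library of that mark with the longest cover.

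Nr2f2 (chromosome 7, 70351944 to 70366735, minus strand) had H3K27me3 at its promoter in all 8 libraries. The covered share was 100% in 7 of them and 68.4% in hippocampal cKO replicate 1. Islands in hippocampus were 13.6 and 11.8 kb wide (Ctrl) against 14.2 and 15.4 kb (cKO), and held from 34.1 to 42.8 counts per kb. Those in neurospheres were 18.8 and 18.2 kb against 25.0 and 68.2 kb, at 192 and 158 counts per kb against 96.4 and 129. Over the library mean they stood at 3.18 and 3.02 in Ctrl and 2.23 and 3.07 in cKO, 3 of which were above the ratio of every other gene of the 9, and the genotypes overlapped. H2AK119ub1 covered 63.4% and 100% in hippocampal Ctrl, 66.7% and 98.4% in cKO, and between 88.4% and 100% in neurospheres. Around the internal start 6.14 kb into the gene, H3K27me3 covered 8.39% and 0% in hippocampal Ctrl and 0% and 61.6% in cKO, and 100% in all 4 neurosphere libraries. Nr2f2 had no H3K36me2 island in promoter or body in any library.

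**Figure D2:**
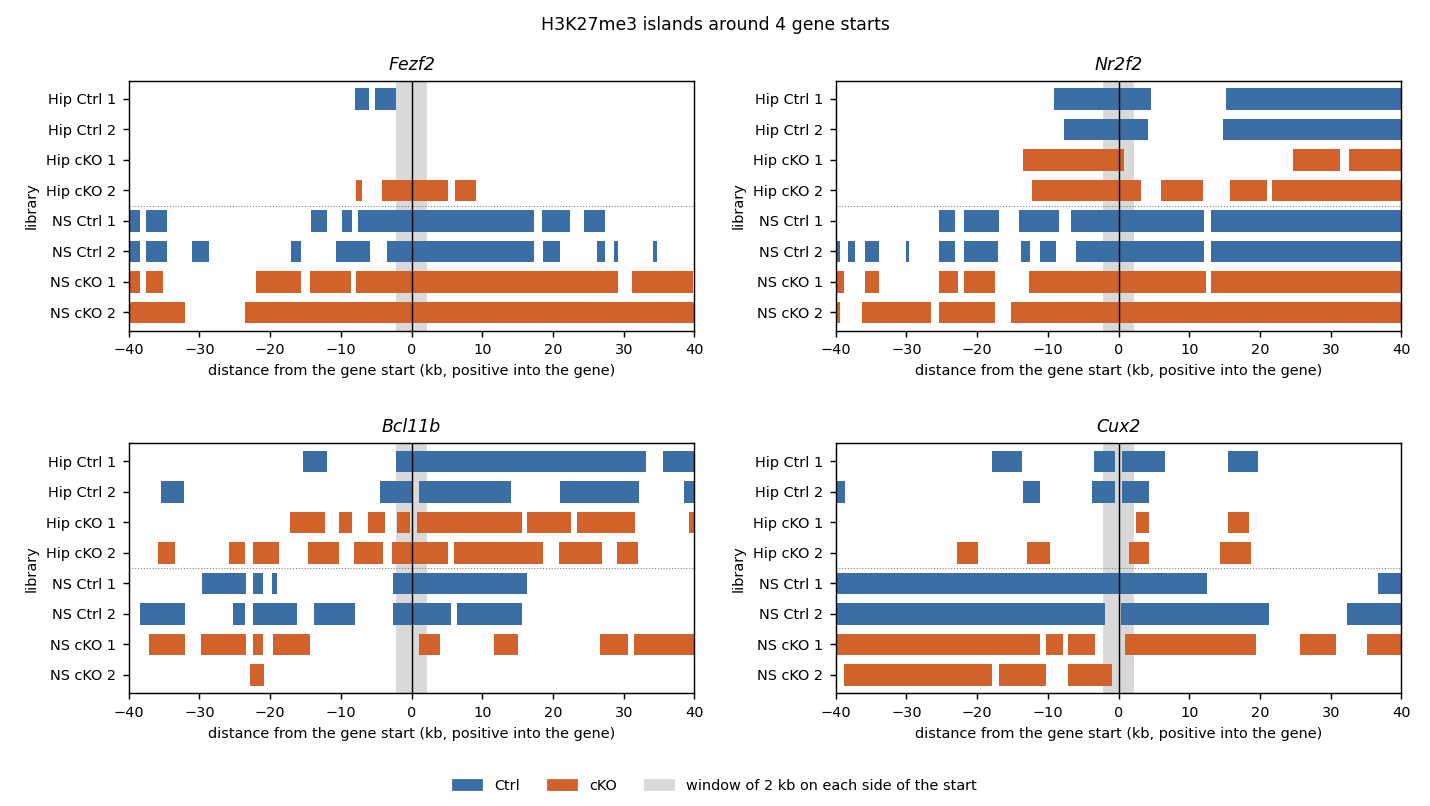
H3K27me3 islands (bars) against distance from the start of Fezf2, Nr2f2, Bcl11b and Cux2 (kb, positive into the gene), 1 row per library, Ctrl in blue and cKO in orange, with the promoter window in grey. The Fezf2 window is empty in 3 of 4 hippocampal libraries and full in all 4 neurosphere libraries, and the Bcl11b window has islands in all libraries but neurosphere cKO replicate 2.

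Bcl11b (chromosome 12, 107910403 to 108003602, minus strand) was covered by H3K27me3 at its promoter over 100% and 80% in hippocampal Ctrl and 75.0% and 100% in cKO. In neurospheres it was complete in Ctrl (100% and 100%), against 25.0% and 0% for cKO. The genotypes overlapped in hippocampus and not in neurospheres, where Ctrl averaged 100% ± 0 and cKO 12.5% ± 17.7 (SD, n = 2 each). With 2 libraries against 2, the two-sided exact permutation test gave p = 0.333, the smallest it can give. The widest promoter island in neurospheres was 19.0 and 8.2 kb wide in the Ctrl libraries, against 3.0 kb in cKO replicate 1. Within 1 kb of the start itself, H3K27me3 covered 100% in both Ctrl and 0% in both cKO libraries. Over the gene body in neurospheres the genotypes overlapped, with 17.6% and 22.3% in Ctrl and 40.3% and 0% in cKO. H2AK119ub1 covered the promoter over 0% and 100% in hippocampal Ctrl, 0% and 80% in hippocampal cKO, 100% and 30.0% in neurosphere Ctrl and 0% and 80% in neurosphere cKO. In hippocampal Ctrl the libraries of one genotype thus spanned the whole scale.

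Cux2 (chromosome 5, 121856366 to 122050102, minus strand) had lower H3K27me3 cover at its promoter in both cKO libraries of each source. The share was 75% and 75% in hippocampal Ctrl against 0% and 12.5% in cKO, a difference of -68.8 percentage points (cKO minus Ctrl), and 100% and 45% in neurosphere Ctrl against 27.5% and 27.5% in cKO, a difference of -45.0 points. The order in neurospheres was lost when a window counted from 50% cover and kept in the other 5 of 6 alternatives. Each again gave an exact permutation p of 0.333. The widest neurosphere islands over the window were 79.8 and 63.4 kb (Ctrl) against 18.6 and 6.2 kb (cKO). The 63.4 kb island met only the edge of the window, and the cKO islands lay on opposite sides of the start. Within the region that the 4 neurosphere libraries formed together, called length was 91.0 and 96.4 kb (Ctrl) against 90.2 and 64.2 kb (cKO). Body cover was 73.7% and 84.5% against 78.6% and 25.7%. Both marks spread far into the gene, and around a start 125 kb inside Cux2 H3K27me3 covered 100% in all 8 libraries. H2AK119ub1 covered 17.5% and 100% of the promoter in hippocampal Ctrl, 32.5% and 57.5% in cKO, 100% and 0% in neurosphere Ctrl and 40% and 80% in cKO, with full overlap of the genotypes.

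Tle4 (chromosome 19, 14448150 to 14598051, minus strand) had H2AK119ub1 over 31.3% and 31.3% of its promoter in hippocampal Ctrl and 6.25% and 31.3% in cKO. In neurospheres it covered 36.3% and 26.3% in Ctrl, and no part in either cKO library (31.3% ± 7.07 against 0% ± 0, SD, n = 2 each; exact permutation p = 0.333). The genotypes stayed apart in 3 of 6 alternatives, and not at equal covered length, without the islands lowest in counts per kb, or when a window counted from 50% cover. H3K36me2 went the other way, with 0% and 0% in neurosphere Ctrl and 26.3% and 6.25% in cKO, again apart in 3 of 6 alternatives. For both marks 1 of these 3, the window over all transcript starts, only repeats the main window. Tle4 has 1 coding start, at its annotated gene start. The H2AK119ub1 islands in Ctrl were 5.0 and 6.4 kb wide, at 40.6 and 32.3 counts per kb, below the mean of their libraries (0.749 and 0.815). The cKO libraries did have H2AK119ub1 islands close by, of 2.4 and 3.0 kb in all, within the 6.8 kb region that the 4 libraries formed together, and these lay outside the promoter window.

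Nr2f1 (chromosome 13, 78188973 to 78199757, minus strand) had no H3K27me3 in its promoter or body in hippocampus. In neurospheres its body was covered over 0% and 0% in Ctrl and 13.0% and 91.1% in cKO, and its promoter over 26.1% in cKO replicate 2 alone, by an island of 35.4 kb. H2AK119ub1 covered part of the body in all 4 neurosphere libraries (42.9% and 38.9% in Ctrl, 22.3% and 63.3% in cKO). The paralogues Nr2f1 and Nr2f2 thus differed: the one had H3K27me3 at its promoter in 1 library, the other in all 8.

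Mef2c (chromosome 13, 83504034 to 83667080, plus strand) had no Polycomb mark in the window at its annotated start. Around coding starts 19.4 kb and 68.3 kb inside, hippocampal cKO replicate 2 alone had H2AK119ub1, over 29.5% and 24.6%. At the latter starts that library also had H3K27me3, over 43.7%. A 0.6 kb H3K36me2 island covered 15% of the window at the annotated start in both neurosphere Ctrl libraries and none of that window in cKO. This order was kept in 3 of 6 alternatives. It was lost with islands of at least 2 kb and when counted from 50% cover, and over all transcript starts the direction turned (2.07% and 8.29% in Ctrl against 1.38% and 29.4% in cKO). Zbtb20 (chromosome 16, 42875881 to 43642602, plus strand) had 1 island in the window at its annotated start, of H3K36me2, over 12% in neurosphere cKO replicate 2. Around the coding starts 488 kb inside, H3K36me2 covered 64.7% and 86.1% in neurosphere Ctrl and 58.4% and 12.2% in cKO, and 3 other groups of internal starts had such islands in neurosphere cKO libraries. The gene had no H3K27me3 anywhere in its 767 kb body. Its H2AK119ub1 stayed under 1% of the body in every library (at most 0.939%). Etv1 (chromosome 12, 38779380 to 38870484, plus strand) had no promoter island of any mark.

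**Figure D3:**
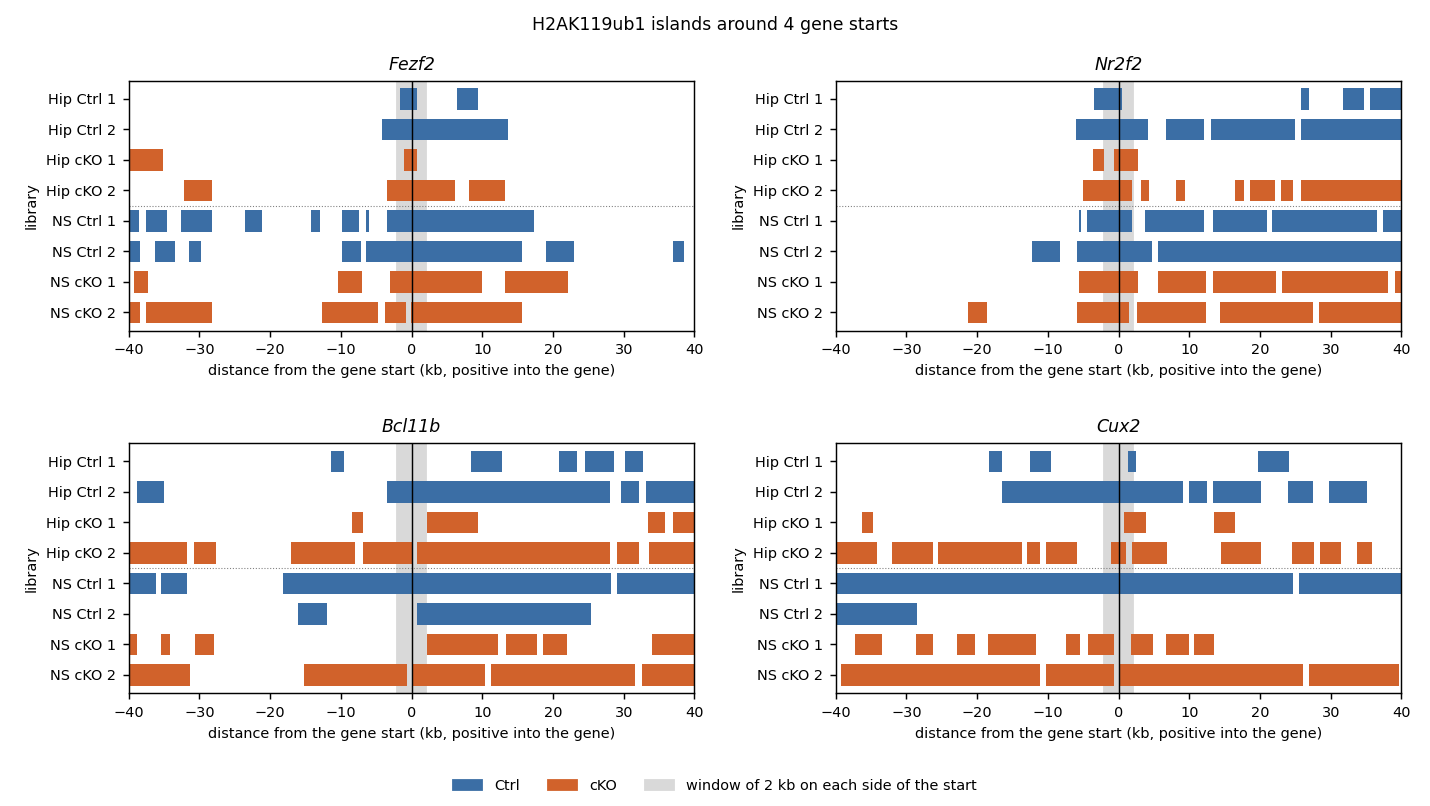
H2AK119ub1 islands (bars) against distance from the start of Fezf2, Nr2f2, Bcl11b and Cux2 (kb, positive into the gene), 1 row per library, Ctrl in blue and cKO in orange, with the promoter window in grey. In hippocampus replicate 2 covers more of the promoter window than replicate 1 in both genotypes at all 4 genes (at Fezf2 100% against 60% in Ctrl and 100% against 45% in cKO).

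Counted over the genes whose promoter cover varied among the 4 libraries, both cKO libraries lay below both Ctrl libraries for H2AK119ub1 in neurospheres in 1 of 5 (Tle4; 7.96% of all genes with varying cover), for H3K27me3 in hippocampus in 1 of 4 (Cux2; 2.8% of all genes), for H3K27me3 in neurospheres in 2 of 3 (Bcl11b and Cux2; 15.2% of all genes) and for H3K36me2 in neurospheres in 1 of 5 (Mef2c; 5.63% of all genes). The opposite order, with cKO above Ctrl in both, was seen for neurosphere H3K36me2 in 1 of 5 (Tle4; 4.24% of all genes). Hippocampal H2AK119ub1 gave no such gene in either direction among 6 (1.7% of all genes lower and 2.03% higher), and none of the 9 had hippocampal H3K36me2 at its promoter. The mean difference over the 9 genes was -4.15 and -6.80 percentage points for H2AK119ub1 in hippocampus and neurospheres and -4.12 and -13.3 points for H3K27me3, while the median, genes with equal cover included, was 0 in each. Over all genes with varying cover the median differences were 5.53 and -2.50 points for H2AK119ub1 and 10.0 and -2.28 points for H3K27me3. The means were 5.04 and -2.71 points and 9.69 and -3.68 points. Genes with equal cover are left out there and included among the 9, so the sets are not alike. With 3 to 6 genes that vary, these counts describe the genes named and no more. Nothing in the labels says that the libraries of a group came from separate animals or cultures, so p-values here measure only the spread between libraries.

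In gene bodies, both cKO libraries were above both Ctrl libraries for hippocampal H2AK119ub1 in 3 of 9 (Zbtb20, Etv1 and Tle4; 4.64% of all genes), all at low cover: 0% and 0% against 4.14% and 8.01% at Tle4, and at most 1.54% at the other genes. Zbtb20 and Tle4 were no longer apart at equal covered length or without the islands lowest in counts per kb (0.667 points at Tle4 in the latter), and Etv1 had no island of at least 2 kb. For neurosphere H3K27me3 this held in 2 of 4 (Nr2f1 and Nr2f2; 16.1% of all genes), where Nr2f2 moved only from 93.2% and 93.2% to 94.6% and 100%, and where Nr2f1 overlapped with islands of at least 2 kb. For hippocampal H3K36me2 it held in 2 of 6 (Bcl11b and Cux2; 17.4% of all genes), with 0% and 0% against 7.94% and 14.8% at Bcl11b and 2.68% and 2.68% against 6.30% and 10.2% at Cux2. For neurosphere H3K36me2 it held in 3 of 7 (Etv1, Mef2c and Tle4; 6.96% of all genes), with 0.439% and 1.54% against 7.02% and 32.5% at Etv1, 6.73% and 7.09% against 7.36% and 37.1% at Mef2c, and 1.33% and 4.4% against 7.6% and 15.3% at Tle4. At equal covered length Etv1 and Mef2c overlapped, Mef2c also without the islands lowest in counts per kb, and Tle4 overlapped with islands of at least 2 kb. Each of these had an exact permutation p of 0.333. No gene body of the 9 was lower in both cKO libraries. Of all genes with varying body cover, in hippocampus and neurospheres, 1.57% and 7.16% were lower for H2AK119ub1. The shares were 2.75% and 14.3% for H3K27me3 and 7.09% and 6.52% for H3K36me2.

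**Figure D4:**
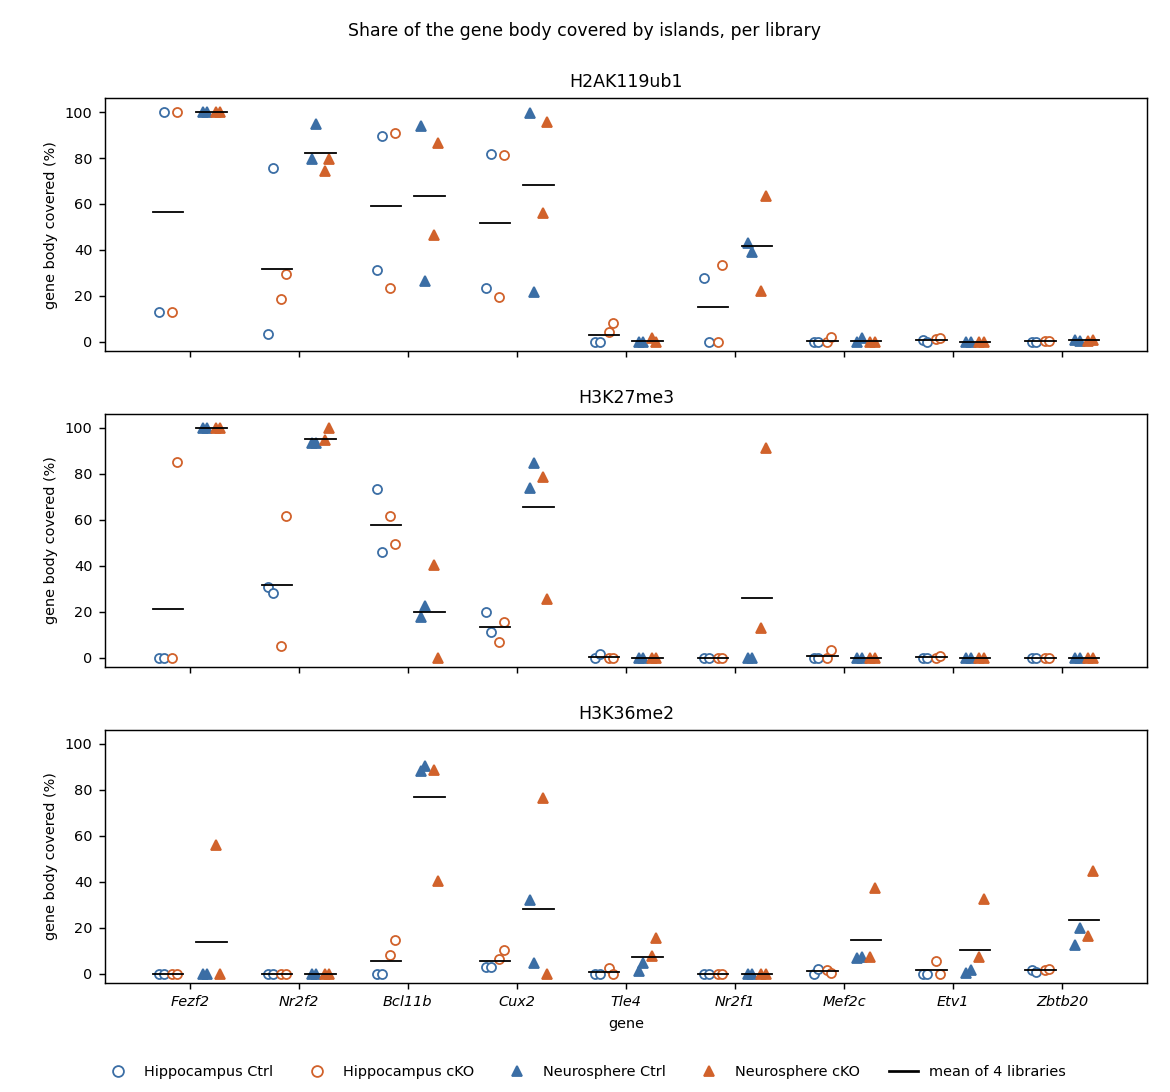
Share of the gene body covered by islands (percent) for each of the 9 genes, with a panel for each mark; circles are hippocampal and triangles neurosphere libraries, blue for Ctrl and orange for cKO, and the bars are means of 4 libraries. H3K27me3 cover of Fezf2, Nr2f2 and Cux2 is higher, and of Bcl11b lower, in all 4 neurosphere libraries than in all 4 hippocampal libraries.

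The clearest separation was between sources. H3K27me3 cover of the gene body was higher in all 4 neurosphere than in all 4 hippocampal libraries in 3 of the 8 genes tested for this mark (22.0% of all genes tested). At Fezf2 it was 21.3% ± 42.6 in hippocampus and 100% ± 0 in neurospheres (SD, n = 4 each), at Nr2f2 31.4% ± 23.3 and 95.3% ± 3.22, and at Cux2 13.4% ± 5.52 and 65.6% ± 27. Bcl11b went the other way, 1 of 8 (3.31% of all genes tested), with 57.7% ± 12.6 in hippocampus (73.6% and 45.9% in Ctrl, 61.8% and 49.6% in cKO) and 20.1% ± 16.6 in neurospheres (17.6% and 22.3% in Ctrl, 40.3% and 0% in cKO). Each of these 4 had an exact permutation p of 0.0286, the smallest that 4 libraries against 4 allow, and an adjusted p of 0.113 over 10681 genes, where no gene passed. At the same covered length in all 8 libraries, the sources of these 4 genes stayed apart.

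H3K36me2 cover of the body was higher in all 4 neurosphere libraries in 3 of 7 (Zbtb20, Bcl11b and Mef2c; 24.3% of all genes tested). Bcl11b had 5.69% ± 7.14 in hippocampus and 77.0% ± 24.4 in neurospheres (SD, n = 4 each; exact permutation p = 0.0286, adjusted p = 0.114), the reverse of its H3K27me3. Zbtb20 had 1.44% ± 0.574 and 23.3% ± 14.5, and Mef2c 1.02% ± 1.00 and 14.6% ± 15.0. Neurosphere libraries of this mark covered 349 to 497 Mb and hippocampal ones 115 to 161 Mb. At equal covered length Zbtb20 still separated (at most 0.965% in hippocampus, at least 2.95% in neurospheres), and Bcl11b (up to 14.8% against 14.4% to 86.1%) and Mef2c overlapped. No promoter of the 9 separated the sources in any mark, among 6, 5 and 5 with varying cover (H2AK119ub1, H3K27me3 and H3K36me2). Of all genes with varying cover, neurospheres were lower in 0.0963%, 2.76% and 0.0718% and higher in 3.33%, 12.9% and 6.26%, in the same order. The promoter of Fezf2 differed by 75.0 points for H3K27me3 with an exact permutation p of 0.143.

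The quasi-likelihood test of edgeR was applied to counts in regions merged from the islands of the libraries compared. A region was tested where every library had an island in it, and a fold change combines called length with counts per kb. Between sources, 42.5% of 2373 H3K27me3 regions and 20.5% of 1555 H2AK119ub1 regions passed an adjusted p of 0.05 (Benjamini-Hochberg). The H3K27me3 region at Bcl11b held 2197 and 1154 counts in hippocampal Ctrl, 2564 and 1559 in hippocampal cKO, 1027 and 1198 in neurosphere Ctrl and 1147 and 95 in neurosphere cKO. Its log2 fold change, neurosphere over hippocampus, was -2.48 (SE 0.60, edgeR adjusted p = 0.00890, and from 3.42e-05 to 0.0298 over 14 alternatives). The region at Cux2 held 626 and 317 counts in hippocampal Ctrl, 426 and 866 in cKO, 5564 and 4814 in neurosphere Ctrl and 3801 and 2559 in cKO, and rose by 1.57 (SE 0.25, edgeR adjusted p = 0.00118). The region at Nr2f2 differed by 0.43 (SE 0.21, adjusted p = 0.131). Bcl11b fell and Cux2 rose in neurospheres.

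Counts per kb gave a different picture for Cux2. With called length as an offset in edgeR, the median of all H3K27me3 regions moved to -0.89. Cux2 stood at -0.73 (edgeR adjusted p = 0.0158) and Bcl11b at -1.12 (adjusted p = 0.000696), and most regions passed in this setting. These p-values test a difference from 0. Relative to the median Cux2 was 0.16 above and Bcl11b at -0.23, and these differences were not tested. Most of the change in counts at both thus lay in called length. That length was 20.4, 12.4, 10.8 and 33.6 kb at Cux2 in hippocampus and 91.0, 96.4, 90.2 and 64.2 kb in neurospheres. At Fezf2 and Nr2f1 not every library had H3K27me3 in the region, so there was no test: Fezf2 had 166 counts, no island, no island and 373 counts in hippocampus and 4006, 3056, 3597 and 4818 in neurospheres. None of the 5 genes with a tested H2AK119ub1 region passed (Fezf2 1.04, adjusted p = 0.0761; Bcl11b -0.79, adjusted p = 0.106; Tle4 -0.90, adjusted p = 0.322; Nr2f2 0.60, adjusted p = 0.252; Cux2 -0.05, adjusted p = 0.929). Fezf2 passed in 3 of 14 alternatives: DESeq2 (adjusted p = 0.0331), edgeR with at least 50 counts in every library (adjusted p = 0.0471) and edgeR without neurosphere Ctrl replicate 1 (1.41, adjusted p = 0.0399). The highest adjusted p was 0.555.

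**Figure D5:**
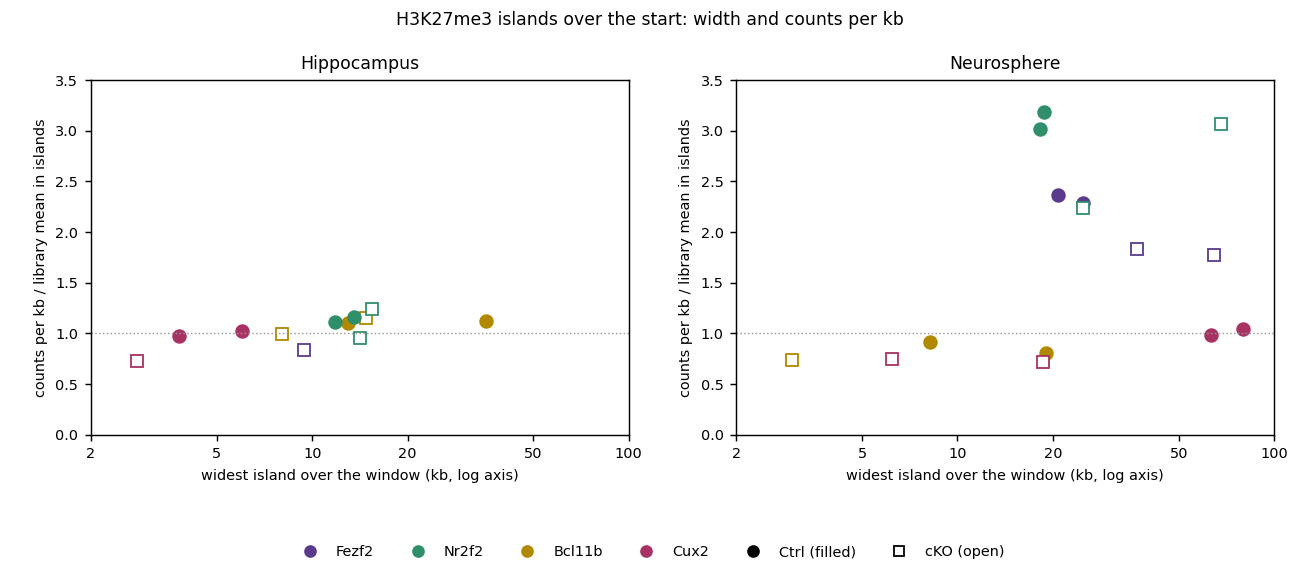
Width of the widest H3K27me3 island over the promoter (kb, log axis) against the counts per kb of the promoter islands divided by the mean of their library, for Fezf2, Nr2f2, Bcl11b and Cux2 in hippocampus and neurospheres; each point is a library, filled for Ctrl and open for cKO. The neurosphere points of Nr2f2 and Fezf2 lie at 1.77 or more on the vertical axis and those of Bcl11b and Cux2 at 1.04 or less.

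Between genotypes, with all libraries and without the length offset or replicate block, edgeR called no region. The share called was 0.0% of 2750 hippocampal and 0.0% of 6060 neurosphere H2AK119ub1 regions, and 0.0% of 4387 hippocampal and 0.0% of 11262 neurosphere H3K27me3 regions, with 30, 101, 155 and 2077 regions at an unadjusted p under 0.05 and 0, 32, 3 and 734 called by DESeq2. In simulated counts with the spread fitted to these libraries, edgeR recovered 93, 15, 117 and 125 of 200 large planted changes, in the same order. The absence of calls therefore does not show that no region changed. The H3K27me3 region at the Cux2 start in hippocampus held 215 and 115 counts (Ctrl) against 80 and 70 (cKO), a log2 fold change of -1.88 (SE 0.48, edgeR adjusted p = 0.994). A further region of 3.2 kb in the same window had an island in each Ctrl library and none in cKO. In neurospheres the Cux2 region held 5564 and 4814 counts (Ctrl) against 3801 and 2559 (cKO) (-0.70, SE 0.27, edgeR adjusted p = 0.270, up to 0.714 over 10 alternatives). Without cKO replicate 1, which leaves 1 cKO library, the change was -1.30. The Bcl11b region in neurospheres held 921 and 782 counts (Ctrl) against 194 counts and no island (cKO), so it was not tested. The Nr2f1 region in neurospheres held 358 and 94 counts (Ctrl) against 1108 and 2623 (cKO). This was the largest genotype difference among the tested regions of the 9 genes (3.13, SE 0.65, edgeR adjusted p = 0.175). DESeq2 called Nr2f1 (adjusted p = 1.47e-05) as 1 of 734 neurosphere H3K27me3 regions, and the range over 10 alternatives reached 0.601. Its called length was 6.0 and 3.0 kb (Ctrl) against 22.8 and 35.4 kb (cKO).

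For Fezf2 and Nr2f2 the counts of the neurosphere H3K27me3 regions did not pass between genotypes: 4006 and 3056 in Ctrl against 3597 and 4818 in cKO at Fezf2 (0.26, SE 0.18, adjusted p = 0.469), and 13367 and 10563 against 8489 and 11312 at Nr2f2 (-0.27, SE 0.17, adjusted p = 0.415). With called length as an offset, both were lower in cKO, Fezf2 at -0.61 (edgeR adjusted p = 0.00379) and Nr2f2 at -0.44 (adjusted p = 0.0418). Other regions passed in this setting too, and these p-values test a difference from 0. The median of all regions moved to -0.28, leaving Fezf2 at -0.34 and Nr2f2 at -0.16 relative to it, and these differences were not tested. Over 10 alternatives the adjusted p of Fezf2 and Nr2f2 reached 0.887 and 0.818. The called length at Fezf2 was 35.6 and 31.8 kb (Ctrl) against 57.8 and 64.8 kb (cKO). Bcl11b (-0.61, adjusted p = 0.994) and Nr2f2 (-0.43, adjusted p = 0.994) did not pass in hippocampus. H2AK119ub1 regions of the 5 genes ranged from -0.88 at Tle4 to 0.21 at Cux2, both in neurospheres, with adjusted p of 0.999 or more. Leaving out neurosphere Ctrl replicate 1, which leaves 1 Ctrl library, moved Bcl11b to 0.82 and Cux2 to 1.19 for this mark, so that library decides these values. A test of the genotype difference between sources called none of these regions (smallest edgeR adjusted p among the 9 genes 0.561, at Nr2f2 for H3K27me3).

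The other genes of this kind were a list of 30 further layer and field factors and paralogues. In neurospheres, H2AK119ub1 was lower at the promoter in both cKO libraries in 3 of 20 with varying cover (Cux1, Nfib and Tle3; 7.96% of all genes). Cux1, the paralogue of Cux2, had 100% and 55% in Ctrl and 5% and 17.8% in cKO, and Tle3, a paralogue of Tle4, 100% and 84.1% against 49.1% and 49.1%. Neurosphere H3K27me3 was lower in 3 of 13 (Foxp1, Etv5 and Tle3; 15.2% of all genes) and higher in 2 of 13 (Lmo3 and Neurod6; 9.76% of all genes), with 0% and 0% against 80% and 100% at Neurod6. Hippocampal H3K27me3 was lower in 1 of 15 (Sox5, 80% and 75% against 44.4% and 44.4%; 2.8% of all genes) and higher in 3 of 15 (Cux1, Neurod6 and Etv5; 12.8% of all genes). Neurosphere H3K36me2 was lower in 4 of 15 (Foxp2, Neurod6, Nfib and Etv5; 5.63% of all genes). The factors with the largest mean differences (cKO minus Ctrl, percentage points) were Rorb (-27.4), Pou3f1 (22.7) and Nfib (-20.6) for hippocampal H2AK119ub1, Cux1 (-66.1), Nfib (-60.0) and Etv4 (-50.0) for neurosphere H2AK119ub1, Otx1 (38.7), Etv5 (35.0) and Sox5 (-33.1) for hippocampal H3K27me3, and Neurod6 (90.0), Lmo3 (65.4) and Tle3 (-39.1) for neurosphere H3K27me3. For H3K36me2 they were Nfib (-35.6), Neurod6 (-31.0) and Sox5 (29.7) in neurospheres, while in hippocampus 2 of the 30 had any island at the promoter, with the larger difference at Nfib (21.9). Of these, Rorb, Pou3f1, Etv4 and Otx1, Nfib in hippocampus, and Sox5 for H3K36me2 had overlapping genotypes. The median difference over the 30 was 0 in each mark and source but neurosphere H2AK119ub1 (-2.74 points).

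Paralogues were compared at their promoters. Fezf1 was covered by H3K27me3 over 100% in all 8 libraries, where Fezf2 was in all neurosphere and 1 hippocampal library. The Bcl11a promoter had no H3K27me3 in hippocampus, where that of Bcl11b had 75.0% to 100%, and 100% in all 4 neurosphere libraries. Etv4 had H3K27me3 over 100% and 25% in hippocampal Ctrl and 44.3% and 100% in cKO and none in neurospheres, and the Etv1 promoter had none in either source. Mef2a had neither Polycomb mark at its promoter, as Mef2c at its annotated start, and Mef2d had H2AK119ub1 in 2 neurosphere libraries.

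Across all protein-coding genes over 100 kb away, the cover most like that of each gene was found from the mean absolute difference over 48 values, the promoter and body shares in 24 libraries. Fezf2 was nearest to Dll4 (7.25 points, against a median of 48.1 over all genes) and Entpd2, and Nr2f2 to Wt1 (6.76 against 50.4). Bcl11b was nearest to Unc5b (13.7 against 41.9) and Rtn4rl1, and Cux2 to Bmf (12.1 against 34.9) and Fgf18. Tle4 was nearest to Pcdh10 (2.84 against 9.30) and Smim4, and Nr2f1 to Rps24 (5.29 against 11.5) and Isg20l2. Zbtb20 was nearest to Bmpr2 (0.775 against 6.92) and Rab10, Mef2c to Cep83 (0.871 against 6.96) and Erp44, and Etv1 to Gm11146 (0.412 against 6.50) and Htr2b, and for these 3 the likeness rests mostly on shared absence of islands.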

How the data were processed

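Groups and replicate numbers came from the sample labels. The authors trimmed reads with cutadapt, aligned them to mm10 with Bowtie2 (2.4.5 per the labels' processing notes), dropped duplicate reads with samtools rmdup and ran SICER on every library against its input (window 200 bp, gap 600 bp, FDR 0.01, version not given in the sources used here). The deposited files give each island's position and its count of reads, which the authors did not normalise. A place without an island has an unknown count, not 0. All 24 files differed. From these, the covered percent of each promoter and gene body was computed in Python 3.11.15 (numpy 2.4.6, pandas 2.3.3, scipy 1.17.1). Cover was tested by exact permutation of the libraries, two-sided, and merged regions by edgeR 4.0.16 (R 4.3.3, TMM, quasi-likelihood, Benjamini-Hochberg over all regions), with DESeq2 1.42.0 as an alternative. Code was checked on simulated data. All 9 genes were named in every comparison. Of the 30 further factors, the 3 with the largest promoter differences per comparison were named by rule, and those whose genotypes did not overlap, and the paralogues, after their values were seen. The nearest genes by cover were named for each of the 9, except 1 that is not reported here. The genes, lists and tests were chosen with earlier results of these data known. Reads carry no molecular identifiers, and the spread between libraries served as the error.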

Additional observations from a re-analysis of the deposited data

How the results depend on the processing

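Of the values of single genes under the alternatives, 453 were classed as the same. For region counts this means the same direction and side of the threshold, and for cover a difference within the replicate spread. Genotypes could still cease to be apart within that spread, as at Cux2 for neurosphere H3K27me3 counted from 50% cover. A further 30 turned in direction, 27 moved further than the replicate spread and 10 passed the threshold only there. The mean difference in promoter cover over the 9 genes (cKO minus Ctrl, percentage points) became -14.2 for hippocampal H3K27me3 at equal covered length. For neurosphere H3K27me3 it was -17.9 within 1 kb of the start, -9.00 over all transcript starts and -16.7 when a window counted from 50% cover. H3K36me2 gave 0.458 in hippocampus over all starts and, in neurospheres, -3.16 within 1 kb, 8.89 over all starts, 0.0 when counted from 50% and 0.361 to 6.56 with a library left out. Between sources H3K36me2 gave 7.30 over all starts. Gene bodies gave -5.51 for hippocampal H3K27me3 and 2.17 for hippocampal H3K36me2 at equal length, and 1.49 for neurosphere H3K27me3 without the 25% of islands lowest in counts per kb. The causes were not tested.

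Regions called between genotypes were 32, 3 and 734 under DESeq2 for neurosphere H2AK119ub1, hippocampal H3K27me3 and neurosphere H3K27me3. For the last, 1504 of 11262 were called with called length as an offset, Fezf2 and Nr2f2 among them. With 1 library left out they ranged from 0 to 789, 0 to 34 and 0 to 2762. The highest counts came without Ctrl replicate 1, cKO replicate 1 and cKO replicate 1, where the lone library is assumed to vary like the others. Between sources, H2AK119ub1 calls were 0 with the offset, 5 in Ctrl libraries alone and 197 to 556 with a library left out. H3K27me3 calls were 2030 of 2373 with the offset, where the p-values test a difference from 0.

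The called length as an offset turned the log2 change at Bcl11b to 0.0484 and -0.0898 (H2AK119ub1, hippocampus and neurospheres), at Cux2 to 0.10 and -0.14, at Fezf2 to 0.25 in hippocampus and at Tle4 to 0.30 in neurospheres. It turned Fezf2 to -0.61 for neurosphere H3K27me3, and between sources Fezf2 to -1.16 and Nr2f2 to -0.95 (H2AK119ub1) and Nr2f2 to -0.0630 and Cux2 to -0.73 (H3K27me3). Bcl11b in neurosphere H2AK119ub1 became -0.0156 under DESeq2 and -0.0154 under its size factors in edgeR, and Cux2 between sources 0.0279 with at least 50 counts in every library.

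With a library left out, H2AK119ub1 changes between genotypes changed sign at 5 genes. They ran from -0.43 to 0.29 in hippocampus and -0.47 to 0.82 in neurospheres at Bcl11b, from -1.06 to 0.0804 and -0.34 to 1.19 at Cux2, from -0.32 to 0.53 and -0.61 to 0.0719 at Nr2f2, from -0.49 to 0.32 at Fezf2 in neurospheres and from -1.002 to 0.76 at Tle4 in hippocampus. Cux2 between sources ran from -0.18 to 0.19.

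The labels do not say that replicate numbers mark a shared animal or day. Deviations of same-numbered libraries correlated at 0.33 and 0.26 in hippocampus (H2AK119ub1, H3K27me3) and at -0.32 and -0.12 in neurospheres. With the replicate block 9 hippocampal H3K27me3 regions were called and 0 in the other 3 comparisons, and crossing the numbers in neurospheres, chosen after seeing the data, called 0 and 0. Tle4 in hippocampal H2AK119ub1 turned to -0.13 under the block. No H3K36me2 region at a start of the 9 genes had islands in every library, so none was tested.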
